A study of Mus musculus with 8 samples.

Results

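The aryl hydrocarbon receptor (AHR) is a ligand-activated transcription factor of the bHLH-PAS family. Without ligand it is held in the cytoplasm by a chaperone complex, and with ligand it enters the nucleus, pairs with its partner ARNT and raises a set of genes that includes cytochromes of family 1. It is best known as the sensor of dioxins and polycyclic hydrocarbons, and fibroblasts are among the cells in which Cyp1b1 is a typical target. The genes described here are the receptor (Ahr), its partner (Arnt) and 3 targets (Cyp1b1, Tiparp and Nqo1), taken by symbol from the deposited table. They are 5 of its 22200 genes, and all 5 were high enough to be tested. Ahr was chosen by its low level at 12 h of retinoic acid (RA) in these libraries, so its values are given as a description with no test, and the tests concern the other 4 genes.

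The cells were immortalised mouse embryonic fibroblasts on the C57BL/6 background whose genotype label is TAF4-/-, which all 8 libraries share, so no library of TAF4-expressing cells enters a comparison. TAF4 belongs to TFIID, the complex that recruits RNA polymerase II to promoters, and the study derived its TAF4-null line from its floxed line (C1) by expression of Cre. The study names this TAF4-null line (C3) as the source of its RNA-seq, RA treatment included. The labels themselves do not say whether more than a single TAF4-null line was used. Untreated cells, labelled 12 h, gave 3 libraries. RA treatment gave 3 libraries at 12 h and 2 at 72 h. No untreated library was labelled 72 h, so treatment and time in culture cannot be told apart in any comparison with 72 h. All 8 library titles carry cl1, which resembles the study's name for its TAF4-expressing line. Reads assigned to Taf4a lay between 984 and 1449 in all 8 libraries, and whether they fall in the deleted part of the gene cannot be read from a gene total.

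Values are normalised reads per gene, quantile normalised by the authors, with the same total of 9442018.6 in every library and a lowest value of 1, so the depth of a library is unknown. In bulk samples fewer cells expressing a gene and less RNA per cell cannot be told apart. The 10 fibroblast markers summed to between 215064 and 255402 normalised reads in the 8 libraries, with Thy1, Dcn and Lum at or under 8 in each. The epithelial list (5 of 6 genes in the table) summed to between 21.5 and 38.1, the immune list (6 of 6) to between 40.6 and 71.1 and the endothelial list (5 of 5) to between 55.1 and 104. Of the fibroblast list Pdgfra was called higher at 12 h (1.49 on the log2 scale), and Col3a1 was called lower at 72 h (-1.43) than in untreated cells. The part of such shifts in the results was not tested. The known RA-responsive genes Cyp26b1, Dhrs3, Tgm2 and Rarb were all called higher at both times, while Cyp26a1 (mean 3.09) was too low to be tested. The libraries also differed within groups along a shared axis that held 50.1% of the within-group variance. Side 1 of it held RA 72 h replicate 2, RA 12 h replicate 3 and the untreated libraries 1 and 2, and side 2 held the other 4 libraries. Values within the sides are given where they bear on a result. They compare only 1 or 2 libraries per group. The sides were drawn from these same libraries, so such values are a description and no independent check.

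On the mouse assembly mm9, Ahr (ENSMUSG00000019256) lies on the minus strand of chromosome 12 from 36182646 to 36219710, and Arnt (ENSMUSG00000015522) on the plus strand of chromosome 3 from 95238310 to 95301162. Cyp1b1 (ENSMUSG00000024087) lies on the minus strand of chromosome 17 from 80106234 to 80114401, Tiparp (ENSMUSG00000034640) on the plus strand of chromosome 3 from 65332332 to 65359067, and Nqo1 (ENSMUSG00000003849) on the minus strand of chromosome 8 from 109912125 to 109927106. All are protein-coding. Tiparp shares 970 bases with 4931440P22Rik on the opposite strand and Ahr shares 60 bases with Gm17436, counted over whole gene spans. If strand was not kept, some of their reads may thus not be assigned with certainty, and how many was not tested.

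Because Cyp1b1 and Nqo1 were the tested members that passed the adjusted p at 72 h (values follow), the 250 bases before their start sites are printed, 5′ to 3′ on the strand of the gene, from RefSeq on GRCm38.p6. The table held a promoter for 4 of the 5 members, not for Ahr. Capitals mark the core of the AHR and ARNT binding element, GCGTG, searched on both strands, so that a match on the opposite strand reads CACGC.
Cyp1b1, chr17:79715062-79715311, minus strand: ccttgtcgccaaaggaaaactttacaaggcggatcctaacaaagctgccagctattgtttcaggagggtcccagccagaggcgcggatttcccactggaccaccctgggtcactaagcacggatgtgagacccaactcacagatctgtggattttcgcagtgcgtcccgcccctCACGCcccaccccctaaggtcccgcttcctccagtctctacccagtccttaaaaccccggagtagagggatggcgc
Nqo1, chr8:107403206-107403455, minus strand: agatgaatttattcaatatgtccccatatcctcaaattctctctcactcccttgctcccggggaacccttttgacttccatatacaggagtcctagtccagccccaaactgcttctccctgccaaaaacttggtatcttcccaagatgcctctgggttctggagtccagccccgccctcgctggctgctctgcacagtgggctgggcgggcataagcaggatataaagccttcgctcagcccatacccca

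The Cyp1b1 window held 1 match, which begins 76 bases before the start, and the Nqo1 window held 0. Arnt and Tiparp, which did not pass the test, are shown only around their single match, which begins 29 and 170 bases before the start.
Arnt, chr3:95434349-95434377, plus strand: ccatagtttgggGCGTGtcttctgcccag
Tiparp, chr3:65528265-65528293, plus strand: ctccgtccggagCACGCgcacgggaggcg

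Of all 32851 promoter windows of the same length, 28.2% held GCGTG. The core of the antioxidant response element bound by NRF2 (TGACNNNGC) was in 10.2% of all windows and, among the 4 members, in Arnt with 2 matches. The HIF core ACGTG (16.6% of all windows) and the nuclear receptor element AGGTCA (14% of all windows) had 0 matches in the 4 windows. The searched motifs can overlap each other. A match is only a run of letters, and elements farther from the start were not looked at.

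Ahr encodes the receptor. Its level was 447, 408 and 325 normalised reads in untreated replicates 1, 2 and 3, and 104, 107 and 122 in the RA 12 h replicates. At 72 h of RA it stood at 86.8 and 123. All 5 RA libraries lay below all 3 untreated libraries, and the libraries of the 2 RA times overlapped. Of all genes 20% had groups separate from untreated at 12 h, and 36.6% at 72 h. For Ahr the separation goes with the values that chose it. The mean went from 393 ± 62.0 (SD, n = 3) to 111 ± 9.65 (SD, n = 3) at 12 h and 105 ± 25.6 (SD, n = 2) at 72 h. On the scale of log2(value + 1), on which every change below is given, this was -1.81 ± 0.16 (SE) at 12 h and -1.91 ± 0.18 (SE) at 72 h, 3.50-fold and 3.75-fold lower. Among the 12673 genes tested, the share called lower (adjusted p below 0.05 and at least 2-fold) was 0.308% at 12 h and 1.52% at 72 h, and Ahr had the 5th lowest change of all at 12 h and the 38th lowest at 72 h, values that chose it and are not evidence of their own. The difference between 72 h and 12 h was -0.10 ± 0.18 (SE). Within side 1 the change at 12 h was -1.80 and within side 2 it was -1.62. At 72 h these values were -1.79 and -1.90. The size at 72 h depends on the 2 libraries there: it was -1.66 without RA 72 h replicate 1 and -2.16 without replicate 2.

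Arnt encodes the partner that AHR shares with the hypoxia-inducible factors (HIF). It stood at 481.5, 388.5 and 518.5 normalised reads in untreated replicates 1 to 3, at 437, 409.5 and 387 at 12 h of RA and at 418 and 378 at 72 h. The 3 groups overlapped. The change was -0.16 ± 0.12 at 12 h (limma adjusted p 0.553, 95% interval -0.43 to 0.11) and -0.21 ± 0.14 at 72 h (adjusted p 0.406, 95% interval -0.51 to 0.09). A fall of up to 0.51 on the log2 scale is thus within the interval at 72 h, and a 2-fold change in either direction is not. Relative to Arnt in the same library, Ahr lay between -0.67 and 0.07 log2 units in untreated cells, between -2.06 and -1.66 at 12 h of RA, and at -2.26 and -1.61 at 72 h. These differences restate the levels of Ahr that chose it, and the zero of this scale has no meaning, since the normalised reads are not scaled for differences between genes.

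**Figure D1:**
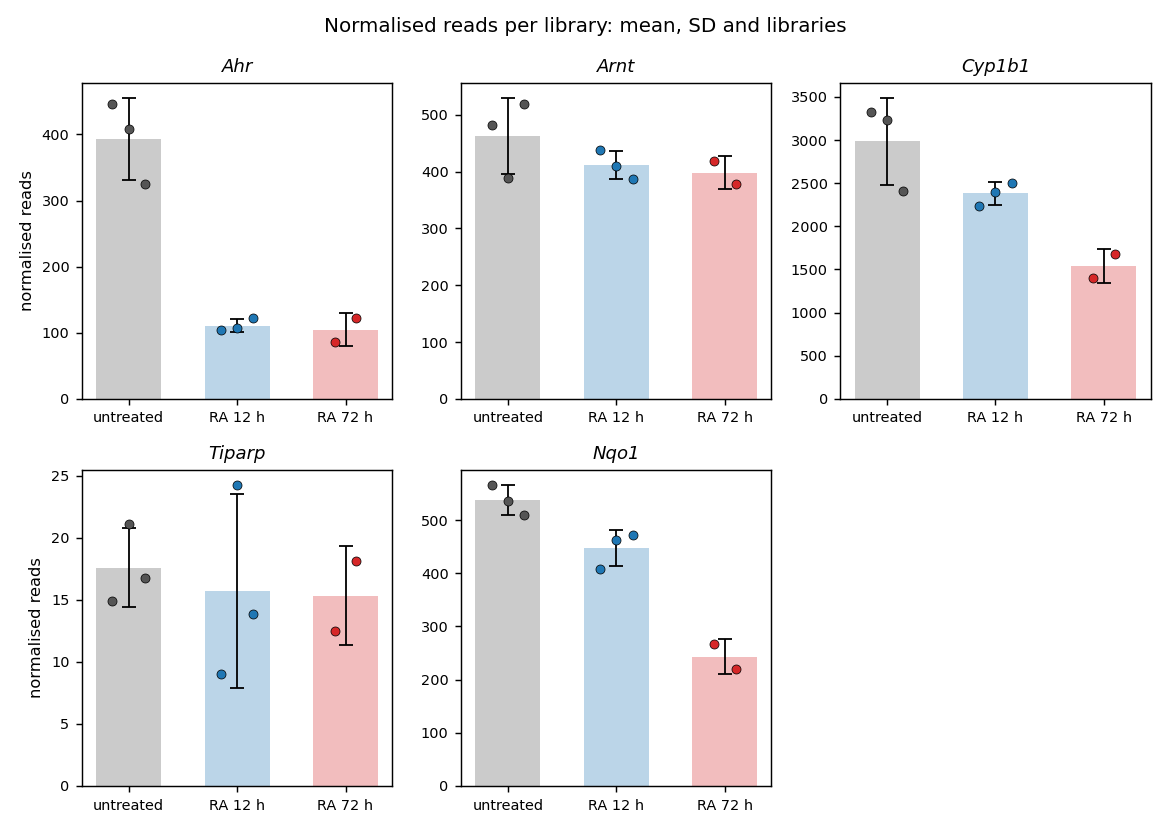
Normalised reads (vertical axis, linear, from 0) of the 5 genes in the 3 untreated, 3 RA 12 h and 2 RA 72 h libraries; points are libraries, bars group means and whiskers the SD. Ahr is at 86.8 to 123 in every RA library against 325 to 447 in untreated cells, Cyp1b1 and Nqo1 are lowest at 72 h, and the groups of Arnt and Tiparp overlap.

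The targets were then compared. None of the 4 tested members was called at 12 h, where 1.42% of all genes were called, and none passed the adjusted p alone, as 4.37% of all genes did. By limma 2 of them, Cyp1b1 and Nqo1, had an unadjusted p below 0.05, as had 16.3% of all genes. At 72 h against untreated 1 of the 4 was called lower, Nqo1, against 1.52% of all genes called lower and 3.67% in either direction. The unadjusted p was below 0.05 in 2 of the 4 and in 23.9% of all genes. Without the 2-fold minimum 2 of the 4 passed, Nqo1 and Cyp1b1, against 11.5% of all genes. In the comparison of 72 h with 12 h of RA none of the 4 was called (0.734% of all genes were called lower and 1.5% in either direction), and the same 2 genes passed the unadjusted p (18.9% of all genes) and the adjusted p alone (5.84% of all genes).

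Nqo1 encodes a quinone reductase that is a target of both AHR and NRF2. Its level was 566.5, 536 and 511 normalised reads in untreated replicates 1 to 3 and 408, 462.5 and 472 at 12 h of RA. At 72 h it was 267 and 220. The groups were fully separate at both times, as were those of 20% of all genes at 12 h and 36.6% at 72 h. The mean of 538 ± 27.9 (SD, n = 3) was followed by 447 ± 34.3 (SD, n = 3) at 12 h and 243 ± 33.2 (SD, n = 2) at 72 h. The change at 12 h was -0.27 ± 0.11 (adjusted p 0.264, 95% interval -0.51 to -0.02), which did not pass. By 72 h Nqo1 fell by 1.15 on the log2 scale (SE 0.13, limma adjusted p 5.79e-05), 2.21-fold. Most of this came after 12 h: the difference between 72 h and 12 h was -0.88 ± 0.13 (adjusted p 0.00117), short of 2-fold. Nqo1 at 72 h was lower within side 1 (-1.32) and within side 2 (-0.93). The difference between 72 h and 12 h was -1.02 without RA 72 h replicate 1, which passed the 2-fold minimum, and -0.74 without replicate 2.

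Cyp1b1 encodes a cytochrome that oxidises polycyclic hydrocarbons, oestrogens and retinoids. It stood at 3323, 3227 and 2409 normalised reads in untreated replicates 1 to 3, at 2239, 2401 and 2507 at 12 h of RA and at 1399 and 1678 at 72 h. Untreated replicate 3 lay within the range of the 12 h libraries, and both 72 h libraries lay below all others (37.3% of all genes had separate groups between the RA times). The means were 2986 ± 502 (SD, n = 3), 2382 ± 135 (SD, n = 3) and 1539 ± 198 (SD, n = 2). At 12 h the change of -0.31 ± 0.13 did not pass (adjusted p 0.236, 95% interval -0.59 to -0.04). It was -0.39 within side 1 and -0.06 within side 2, and without untreated replicate 3 it was -0.46 with an adjusted p of 0.0148. At 72 h Cyp1b1 fell by 0.95 on the log2 scale (SE 0.14, limma adjusted p 0.000673), 1.93-fold, just short of the 2-fold minimum. It passed that minimum when RA 72 h replicate 2 (-1.08) or untreated replicate 3 (-1.10) was left out. The difference between 72 h and 12 h was -0.63 ± 0.14 (adjusted p 0.0191). This p rests on single libraries, and was 0.201 without RA 72 h replicate 1, 0.0803 without RA 12 h replicate 2, 0.0572 without RA 12 h replicate 3 and 0.0943 in a fit without a variance trend.

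Tiparp encodes a mono-ADP-ribosyltransferase that is raised by AHR and limits it. It lay near the low end of the tested range, at 14.9, 21.1 and 16.8 normalised reads in untreated replicates 1 to 3, at 9, 24.2 and 13.9 at 12 h of RA and at 12.5 and 18.1 at 72 h. The groups overlapped, and the RA 12 h libraries spread most, with an SD of 7.79 around a mean of 15.7. The change was -0.24 ± 0.36 at 12 h (adjusted p 0.775) and -0.20 ± 0.40 at 72 h (adjusted p 0.817). The 95% intervals, -1.01 to 0.52 and -1.05 to 0.66, do not exclude a fall of 2-fold, while a rise of 2-fold lies outside both.

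**Figure D2:**
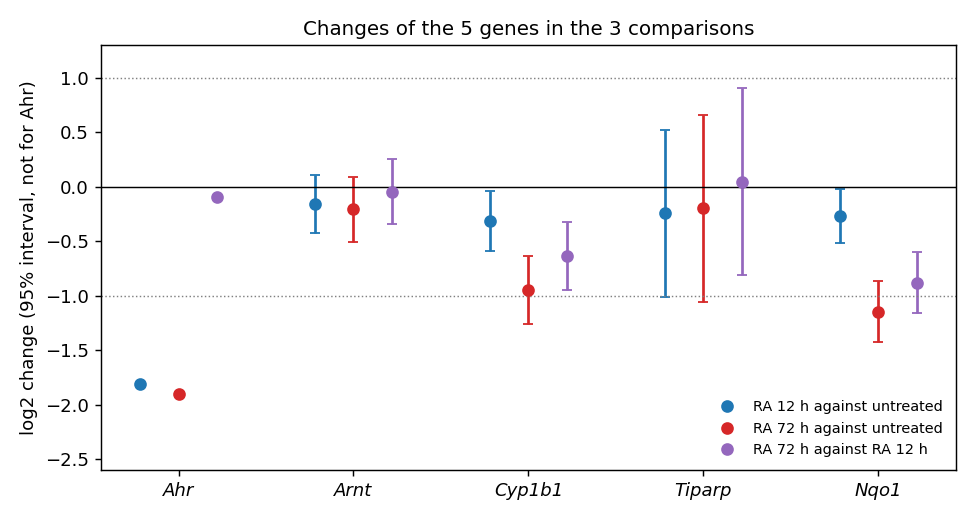
Log2 change (vertical axis, log2(value + 1) scale) of the 5 genes in the 3 comparisons, with the 95% interval of the limma fit for all but Ahr, which was chosen by its values; dotted lines mark 2-fold. Ahr lies near -1.8 and -1.9 at the 2 times with almost no difference between them, Cyp1b1 and Nqo1 lie lower at 72 h than at 12 h, and the intervals of Arnt and Tiparp cross 0.

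Of 8 further genes known to be raised by AHR, 6 were in the table and 3 were high enough to be tested. Cyp1a1, the cytochrome most often used as a readout of AHR, lay between 4.88 and 10.4 normalised reads in the 8 libraries and Cyp1a2 between 1 and 3, under the minimum for a test. Aldh3a1, an aldehyde dehydrogenase of the classical AHR gene battery, was called higher at 12 h and not at 72 h. It stood at 37.9, 37.9 and 34 normalised reads in untreated replicates 1 to 3, at 204, 161 and 124 at 12 h of RA and at 36.5 and 46.6 at 72 h. It rose by 2.10 ± 0.20 at 12 h (adjusted p 2.13e-05) and fell from 12 h to 72 h by 1.93 on the log2 scale (SE 0.22, adjusted p 0.00023). The 12 h libraries lay above all others, and the untreated and 72 h groups overlapped. Groups were separate in 20% of all genes at 12 h against untreated and in 37.3% between the RA times. Of all genes 1.11% were called higher at 12 h, and 0.734% were called lower at 72 h than at 12 h. Ahrr, which encodes the repressor that competes with AHR for ARNT, had means of 119 ± 17.8, 115 ± 8.82 and 133 ± 13.8 in untreated, RA 12 h and RA 72 h cells (changes -0.05 and 0.16, adjusted p 0.905 and 0.627). Ereg, which encodes the growth factor epiregulin, had changes of 0.20 and -0.08 (adjusted p 0.651 and 0.874). The median change of the 3 tested targets was 0.20 at 12 h and 0.16 at 72 h, against -0.02 and -0.02 over all genes.

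**Figure D3:**
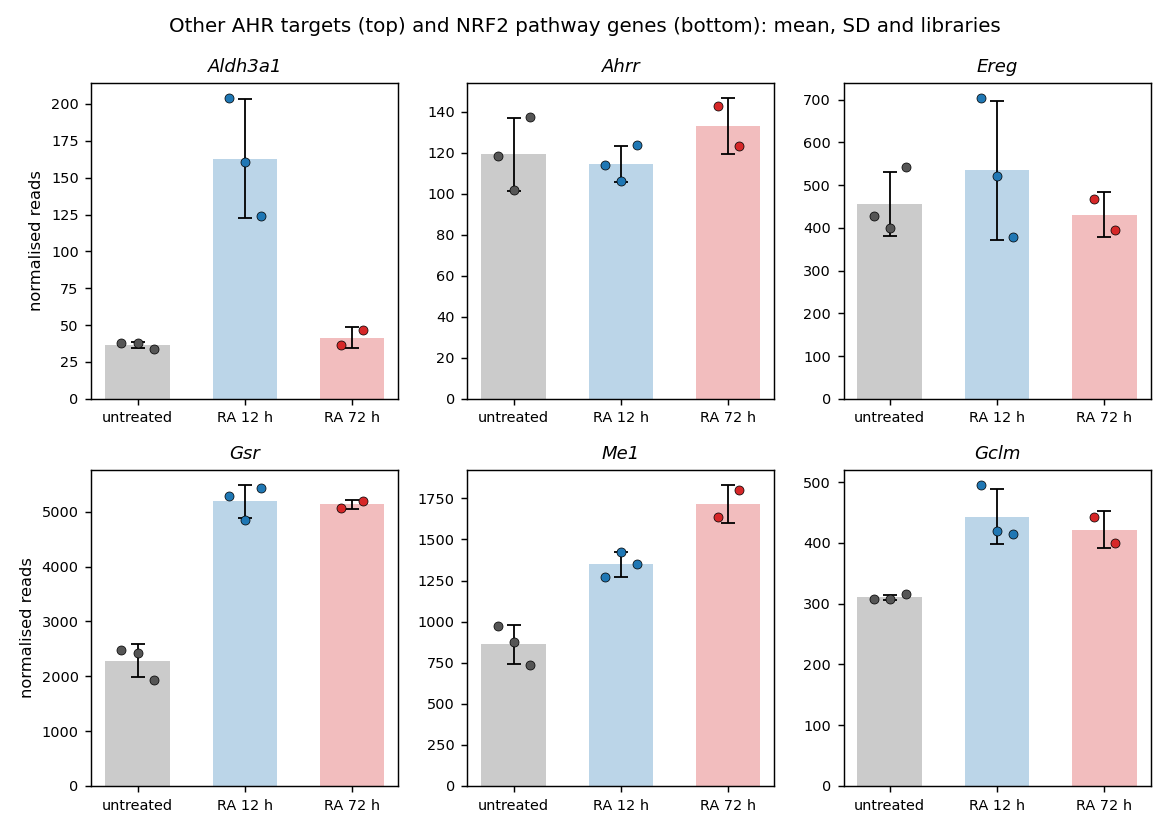
Normalised reads (vertical axis, linear, from 0) of 3 other AHR targets (Aldh3a1, Ahrr, Ereg) and 3 genes of the NRF2 pathway (Gsr, Me1, Gclm) by group; points are libraries, bars means and whiskers the SD. Aldh3a1 is high only in the RA 12 h libraries (124 to 204). Gsr, Me1 and Gclm are higher in all 5 RA libraries than in the untreated ones. Of all genes 20% had groups separate from untreated at 12 h, and 36.6% at 72 h. These 3 genes do not stand for their list. Of its 19 tested genes 9 had a positive change at 72 h and 10 a negative one (median -0.03).

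Nqo1 is also a standard target of NRF2, the transcription factor of the oxidant response, so the other genes of that pathway were set beside it. Of 20 genes, 19 were tested. At 12 h 1 was called higher (Gsr) and 0 lower, and at 72 h 2 were called higher (Gsr and Me1) and 0 lower by limma, where 1.11% and 2.15% of all genes were called higher. With the adjusted p alone 4 were higher and 0 lower at 12 h, and 3 higher and 1 lower at 72 h, against 4.37% and 11.5% of all genes in either direction. Gsr, which encodes glutathione reductase, stood at 2475, 2432 and 1934 normalised reads in untreated replicates 1 to 3, at 5280, 4852 and 5433 at 12 h and at 5070 and 5195 at 72 h, a rise of 1.19 ± 0.11 and 1.18 ± 0.12 (adjusted p 1.56e-05 and 3.47e-05). Me1, malic enzyme, rose by 0.66 ± 0.11 at 12 h (adjusted p 0.0035) and by 1.00 ± 0.13 at 72 h (adjusted p 0.000163), and its call at 72 h was lost when RA 72 h replicate 2 (0.93) or untreated replicate 3 (0.89) was left out and with a pseudocount of 10 (0.99). Gclm, a subunit of the enzyme that makes glutathione precursor, passed the adjusted p at both times (0.51, adjusted p 0.0168, and 0.44, adjusted p 0.0343), and Txnrd1, thioredoxin reductase, at 12 h (0.49, adjusted p 0.00779). Slc7a11, the cystine transporter, was the gene lower at 72 h (-0.62, adjusted p 0.0459). Nfe2l2 itself, which encodes NRF2, had changes of 0.17 and 0.34 (adjusted p 0.426 and 0.0693), its inhibitor Keap1 changes of -0.28 and 0.08 (adjusted p 0.235 and 0.751), and Hmox1 changes of -0.27 and -0.03 (adjusted p 0.198 and 0.894). The list had medians of 0.08 and -0.03, against -0.02 and -0.02 over all genes. Each of its 19 tested genes had a higher change at 72 h than Nqo1 (-0.62 to 1.18 against -1.15). Nqo1 had the 154th lowest change of all 12673 genes tested at 72 h, so nearly all genes lay above it, whatever their pathway.

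Of the 20 HIF targets, whose factor also needs ARNT, 18 were tested. At 12 h 2 were called higher, Pfkfb3 and Hk2, and 0 lower, and the same 2 were called higher and 0 lower at 72 h by limma. Of all genes 1.11% were called higher and 0.308% lower at 12 h, and 2.15% and 1.52% at 72 h. Pfkfb3, a regulator of glycolysis, rose by 2.36 ± 0.18 and 1.74 ± 0.20, and Hk2, hexokinase 2, by 1.03 ± 0.11 and 1.01 ± 0.12. The call of Hk2 was lost at 12 h when RA 12 h replicate 3 (0.99) or untreated replicate 2 (0.98) was left out, and at 72 h when RA 72 h replicate 2 (0.96) or untreated replicate 2 (0.96) was left out or the pseudocount was 10 (0.98). Vegfa, the endothelial growth factor, had a change of 0.65 at 12 h (adjusted p 0.0122, not 2-fold) and of 0.08 at 72 h (adjusted p 0.813). Ndrg1 was lower at both times without reaching 2-fold (-0.72, adjusted p 0.00206, and -0.88, adjusted p 0.000538). Pdk1 (0.78, adjusted p 0.0144) and P4ha1 (0.61, adjusted p 0.0237) passed the adjusted p at 72 h, also short of 2-fold, and not at 12 h (0.18, adjusted p 0.639, and 0.49, adjusted p 0.0776). Slc2a1 (-0.27 and -0.04) and Car9 (-0.26 and -0.62) did not pass at either time. With the adjusted p alone 3 were higher and 1 lower at 12 h, and 4 higher and 1 lower at 72 h. Of all genes 4.37% and 11.5% passed in either direction. The medians of the list were -0.03 and 0.22, against -0.02 and -0.02 over all genes.

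**Figure D4:**
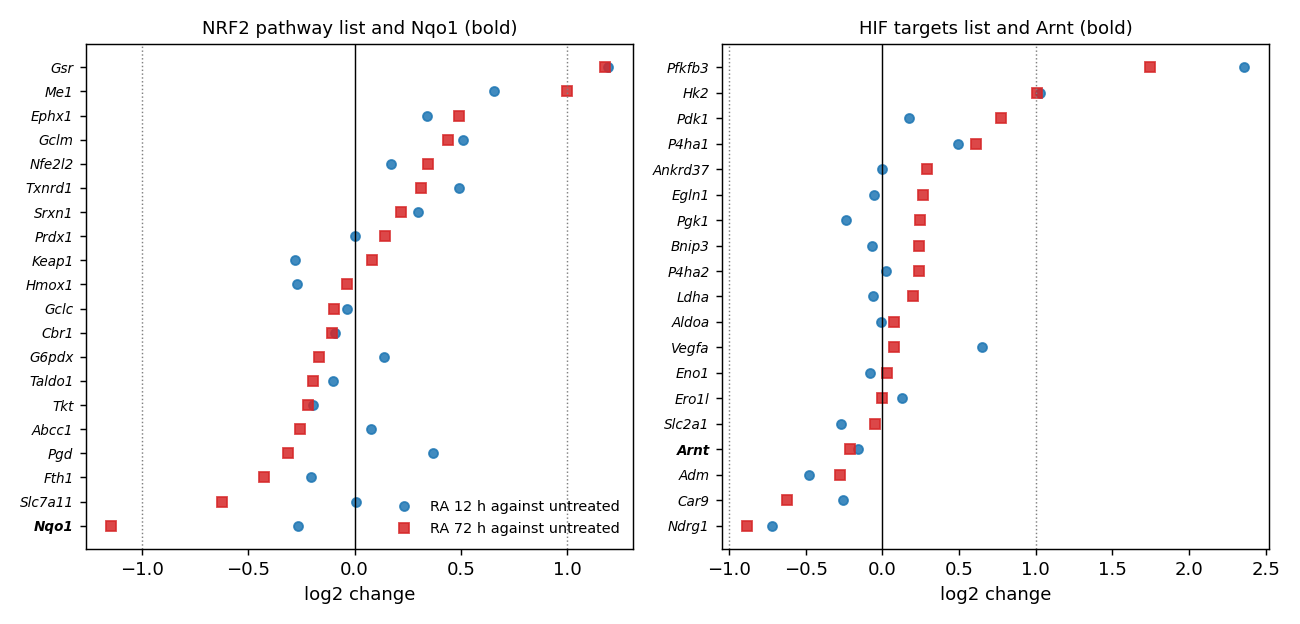
Log2 change against untreated cells (horizontal axis) at 12 h (circles) and 72 h (squares) of the tested genes of the NRF2 list beside Nqo1 and of the HIF list beside Arnt, ordered by the 72 h value; dotted lines mark 2-fold. Nqo1 has the lowest 72 h value of its panel (-1.15) and Gsr the highest (1.18), and Pfkfb3 stands apart among the HIF targets (2.36 and 1.74). At 72 h Nqo1 is also 154th lowest of all 12673 genes tested.

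Of the 4 tested genes for the chaperones that hold AHR before it meets its ligand, 0 were called in any comparison. Of all genes 1.42% were called at 12 h, 3.67% at 72 h and 1.5% between the RA times. An unadjusted limma p below 0.05 was found for 0 of the 4, against 16.3%, 23.9% and 18.9% of all genes. Hsp90ab1 had changes of 0.00 and 0.02. Hsp90aa1 was listed at 1 to 1.75 in all 8 libraries and Ftl1 at 1.5 to 6.62, although both are widely expressed genes. A value near the floor in this table is thus not evidence that a gene is silent. Of the 5 coactivators, 0 were called at either time by limma, with an unadjusted p below 0.05 in 1 at 12 h and 2 at 72 h, against 16.3% and 23.9% of all genes. Ncoa3 had changes of 0.39 (adjusted p 0.102) and 0.69 (adjusted p 0.00431, not 2-fold), and Ncoa1 and Ncoa2 did not pass.

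Among 14 other members of the bHLH-PAS family 11 were tested, with 1 called higher at 12 h (Sim2) and 1 called higher at 72 h (Arnt2), against 1.11% and 2.15% of all genes called higher. Arnt2, a paralogue that can also pair with bHLH-PAS factors, stood at 36, 25.1 and 26.9 normalised reads in untreated replicates 1 to 3, at 49.1, 35.5 and 30 at 12 h and at 50.1 and 72 at 72 h (change at 72 h 1.03 ± 0.28, adjusted p 0.028). It was no longer called when either RA 72 h library was left out (1.28 without replicate 1, adjusted p 0.0514, and 0.77 without replicate 2, adjusted p 0.24), nor when untreated replicate 2 (0.93) or 3 (0.97) was. A pseudocount of 10 (0.85) and a fit with no filter on low values (adjusted p 0.0798) also ended the call. Sim2 went from 321 ± 28.2 to 650 ± 47.3 at 12 h (1.02 ± 0.11, adjusted p 5.55e-05) and 520 ± 1.86 at 72 h (0.70, adjusted p 0.00193, not 2-fold). Its 12 h call was lost when RA 12 h replicate 3 (0.97) or untreated replicate 3 (0.95) was left out, and the change was just under 2-fold with a pseudocount of 10. Arntl, a clock gene that encodes BMAL1, was lower at 72 h without reaching 2-fold (-0.76 ± 0.15, adjusted p 0.00395), and Hif1a was higher without reaching 2-fold (0.46 ± 0.11, adjusted p 0.0164).

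Tryptophan breakdown yields kynurenines, among which are endogenous AHR ligands, but not every enzyme listed here makes them. Of 10 genes 8 were in the table and 6 were tested, with 1 called at 12 h (1.42% of all genes). Il4i1, an amino acid oxidase, was called higher at 12 h, from 14.8, 24.1 and 18.4 normalised reads in untreated replicates 1 to 3 to 56.2, 39.2 and 50 (1.31 ± 0.25, adjusted p 0.00759), and at 72 h it stood at 22.8 and 30. That call was lost without RA 12 h replicate 1 (1.20, adjusted p 0.0648). At 72 h 0 of the 6 were called against untreated by limma, while 3 of them had an unadjusted p below 0.05, against 3.67% of all genes called and 23.9% with such a p. Afmid, kynurenine formamidase, was called higher at 72 h than at 12 h, as were 0.765% of all genes (1.05 ± 0.20, adjusted p 0.00674), with means of 71.3 ± 6.62, 53.6 ± 9.70 and 111 ± 10.2 normalised reads in the 3 groups. The Afmid call was lost without RA 12 h replicate 2 (0.95) or RA 72 h replicate 2 (0.96) and with a pseudocount of 10 (0.94). Kynu, kynureninase, had changes of 1.06 and 1.12 that did not pass (adjusted p 0.196 and 0.145), and Kmo and Tdo2 had means of 5.55 and 2.77 over the 8 libraries, too low to be tested.

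The genes whose values ran most like those of Ahr over the 8 libraries were ranked by Pearson's r on the log2 scale among 11173 genes with a mean of at least 20. The libraries form an untreated and an RA cluster, and r here mostly follows that split, so it serves only to rank. The highest values belonged to Nfkbia (0.983), Slc25a35 (0.980), Dusp6 (0.980), Fbn2 (0.980) and Il6st (0.979). Dusp6, a phosphatase that acts on ERK, went from 127 to 143 normalised reads in untreated cells to 55.4 to 68.5 in the RA libraries, and Fbn2, a fibrillin, from 273 to 352 to a range of 99.2 to 148. The most opposite genes were Tcf4 (-0.996), Ankrd44 (-0.995), Amotl1 (-0.992), Rhoc (-0.992) and S100a16 (-0.992). Amotl1, an angiomotin family member, had 1067 to 1227 normalised reads in untreated and 2217 to 2417 in RA libraries. Among the members, r with Ahr was 0.770 for Cyp1b1, 0.658 for Nqo1, 0.475 for Arnt and 0.312 for Tiparp.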

How the data were processed

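The values deposited by the authors are normalised reads on Ensembl genes, treated here as a score, for each library. Its 8 columns have identical sorted values, so the libraries were quantile normalised and count models were not used. The table has 1 further line, with no gene name, which was not used. The labels describe DpnII tag libraries on mm9. The study's methods describe fragmented RNA, alignment with Tophat and counting with Cufflinks. Deposited group means and log2 ratios between groups were not used. The labels do not say that replicates were separate cultures, so p-values measure the spread between libraries, which may be technical.

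The log2(value + 1) of the 12673 genes whose mean reached 10 was fitted in 1 model of 3 groups with limma 3.58.1 (R 4.3.3, variance trend, two-sided, Benjamini-Hochberg over all genes tested). A call needed an adjusted p below 0.05 and at least 2-fold. The procedure was tested on simulated data with independent noise in each library. These lacked the shared axis of the real libraries, so the test cannot show how the calls behave with it. Members and lists were chosen with earlier results of these data known. Named are the members, called list genes, the first measured genes of each list, check genes and the 5 genes most and least like Ahr. Ereg, Gclm, Txnrd1, Slc7a11, Ndrg1, Pdk1, P4ha1, Hif1a, Ftl1, Kynu, Pdgfra, Col3a1, Thy1, Dcn and Lum were named after their values were seen. A gene of the chaperone list is not reported here. Positions are from GENCODE vM1 on mm9, promoters from RefSeq on GRCm38.p6. Alternatives were other pseudocounts, filters, fold minimums and terms, and leaving out each library.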

Additional observations from a re-analysis of the deposited data

Results flagged for a closer look

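The changes of Nqo1 and Cyp1b1 against untreated cells differed between the 2 times of RA treatment. The 72 h value minus the 12 h value, tested as the difference between RA 72 h and RA 12 h in limma, was -0.88 for Nqo1 (adjusted p 0.00117) and -0.63 for Cyp1b1 (adjusted p 0.0191), and both RA 72 h libraries lay below all 3 RA 12 h libraries in both genes, as the groups of 37.3% of all genes did not overlap. The adjusted p of Cyp1b1 was 0.201 without RA 72 h replicate 1, 0.0803 and 0.0572 without RA 12 h replicates 2 and 3, and 0.0943 with no variance trend. Time in culture differs between these groups as well as time in RA, and the 2 cannot be told apart.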

How the results depend on the processing

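Ahr, whose direction was fixed by its choice, had changes of -1.94 to -1.71 at 12 h and -2.16 to -1.66 at 72 h when any library was left out. Its difference between 72 h and 12 h then ran from -0.35 to 0.15. The call of Nqo1 at 72 h held in all 15 alternative fits that change no threshold (-1.28 to -1.01 without any 1 library). The number of the 4 tested members called at 72 h against untreated went from 1 to 2 with the adjusted p alone and to 0 with a 3-fold minimum, and was 1 to 2 when a library was left out. For 72 h against 12 h it went from 0 to 2 with the adjusted p alone, and was 0 to 1 when a library was left out. At 12 h it stayed 0. Arnt and Tiparp, never called, changed sign for some left-out libraries: Arnt ran from -0.12 to 0.026 between the RA times, and Tiparp from -0.59 to 0.075 at 12 h, -0.45 to 0.055 at 72 h and -0.27 to 0.40 between them. Over all genes the counts of 180, 465 and 190 calls at 12 h, at 72 h and between them became 554, 1456 and 740 with the adjusted p alone and 59, 165 and 41 with a 3-fold minimum, by construction. When a library was left out they ran from 148 to 322 (the highest without untreated replicate 3), 356 to 641 and 150 to 211. Same-numbered libraries of different groups did not consistently deviate together (r from -0.474 to 0.420). The shared axis dominates these values and could hide a pairing, so whether the numbers pair the samples is not known. With the replicate block 2 members were called at 72 h, as Cyp1b1 then passed the 2-fold minimum (adjusted p 0.00217), and the calls of Arnt2 (0.92) and Me1 (0.95) there were lost.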
